A study of Homo sapiens with 12 samples.

Results

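The genes described here are 50 genes of cell division, matched by symbol 1 to 1 to Ensembl identifiers among the 60669 in each deposited table. They were chosen with earlier results of these data known, so their counts beside the shares of all genes describe the group and do not test it. They were grouped by role into 8 mitotic kinases and cyclins, 7 genes of the spindle checkpoint and the anaphase-promoting complex (APC/C), 8 kinetochore genes, 6 genes of condensin and topoisomerase, 4 genes of the chromosomal passenger complex, 4 spindle assembly genes, 9 kinesins and 4 cytokinesis genes. All 50 had enough reads in every library to be tested, with a lowest count of 43 to 402 reads per library. The 50 genes lie on 19 chromosomes.

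Mitosis begins when cyclin A and cyclin B activate the kinase CDK1, after which condensin and topoisomerase compact and untangle the chromosomes. Kinetochores, built on the centromeric histone CENPA, attach the chromosomes to spindle microtubules, and the spindle checkpoint holds the APC/C back until attachment is complete. Kinesin motors build and lengthen the spindle, and the chromosomal passenger complex corrects attachments and then helps to place the cleavage site. Transcripts of most such genes accumulate late in the cell cycle, so in a growing tumour cell line their level in bulk RNA can follow how many cells are dividing as well as how much each cell makes.

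Total RNA was sequenced from PANC-1, an established human pancreatic ductal adenocarcinoma cell line, in 12 libraries that form 6 groups of 2. Cells received a control siRNA or an siRNA against SIK3, a salt-inducible kinase of the AMPK-related family, for 72 h, and tumour necrosis factor (TNF) at 100 ng/mL was then given for 30 min or 4 h or was left out. The replicates are called biological in the series text, with no word on separate cultures or days, so p-values measure the spread between these libraries. The siRNA target is named AS1 in the sample titles and SIK3 in the sample characteristics.

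The condition words in the file names (Scr1 or SIK3; CLM, 30min or 4h) differ from the sample titles for 8 of the 12 libraries, and both sources split them into the same 6 pairs under other names. Groups are called here by the file-name words, with Scr1 read as the control siRNA and CLM as no TNF. The pair titled SIK3 siRNA without TNF is Scr1 30min here, the pair titled control with 30 min of TNF is Scr1 4h, the pair titled SIK3 siRNA with 30 min of TNF is SIK3 CLM, and the pair titled control with 4 h of TNF is SIK3 30min. Only Scr1 CLM and SIK3 4h carry the same condition in both sources. Neither source was shown to be the right one beyond the level of SIK3 itself.

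Levels are given as CPM, the reads of a gene relative to those of all 16695 tested genes in its library. They were scaled by edgeR's trimmed mean of M-values (TMM). SIK3 mRNA was at 34.3 and 60.4 CPM in Scr1 CLM, 42.5 and 68.7 in Scr1 30min and 34.4 and 65.2 in Scr1 4h. It was at 16.3 and 22.4 CPM in SIK3 CLM, 17.3 and 24.0 in SIK3 30min and 18.3 and 22.8 in SIK3 4h. The 6 libraries with SIK3 in the file name thus lay below the 6 Scr1 libraries without overlap, with a mean log2 difference of -1.29 (exact permutation test, two-sided, p = 0.00216, the smallest that 6 against 6 libraries allow, 2 of 924 splits). Grouped by title, the difference was -0.35 (exact permutation p = 0.431). The second replicate was the higher in every pair, and the edgeR call of SIK3 was lost (adjusted p = 0.0684 to 0.188) without replicate 2 of the Scr1 group or replicate 1 of the SIK3 group at each time, and at 4 h also without replicate 2 of SIK3.

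Gene counts ran from 13535825 to 22699756 per library, so that a gene without reads could be at up to 0.132 to 0.222 CPM (3 counts, counting error only). Reads outside annotated genes made up 16.5 and 17.1% of all reads in the 2 SIK3 4h libraries and 8.35 to 10.5% in the 10 others. These shares are of all reads, multimapping ones included, so a library with more multimapping reads shows a lower share. Multimapping reads made up 4.94 to 17.6% in replicates 1 and 10.2 to 45.3% in replicates 2, higher in replicate 2 of every pair. The lowest replicate 2, at 10.2%, was that of SIK3 4h. The epithelial keratins KRT8, KRT18 and KRT19 were at 717 CPM or above in every library, while the keratin KRT7 was at only 5.91 to 11.7 CPM. CDKN2A was at 0 in all 12, and the leukocyte markers PTPRC, CD3E and CD68 were at 0.531 CPM or below. The fibroblast and endothelial genes COL1A2, DCN, PECAM1, LUM and CDH5 were at 1.27 CPM or below, and COL1A1 reached 5.10 to 15.4 CPM. VIM, a mesenchymal filament gene that PANC-1 cells express, was lower in the SIK3 libraries (1353 to 2320 CPM) than in the Scr1 libraries (3262 to 3998 CPM).

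The 50 mitosis genes together were far less abundant in the SIK3 than in the Scr1 libraries. Their summed level was 8925 and 8932 CPM in Scr1 CLM, 9379 and 9103 in Scr1 30min and 8448 and 8671 in Scr1 4h. In the SIK3 libraries it was 1851 and 1794 CPM in CLM, 2006 and 2063 at 30min and 2700.0 and 2687 at 4h. The 6 SIK3 libraries did not overlap the 6 Scr1 libraries, and within the SIK3 libraries the 4h pair was the highest. As a share of all gene counts, the 50 genes took 0.798 to 0.912% in Scr1 and 0.183 to 0.274% in SIK3 libraries. In bulk RNA, fewer dividing cells and less RNA per cell cannot be told apart.

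**Figure D1:**
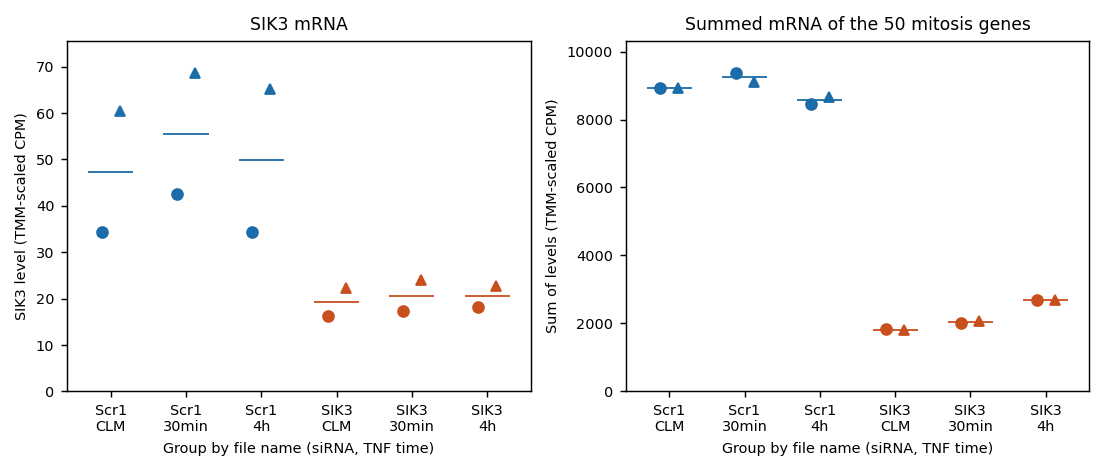
SIK3 mRNA (left) and the summed mRNA of the 50 mitosis genes (right) in TMM-scaled CPM for the 6 file-name groups, with circles for replicate 1, triangles for replicate 2 and lines at the mean of each pair. In both panels the 6 SIK3 libraries lie below the 6 Scr1 libraries, and the summed level of the mitosis genes is higher at 4h (2700.0 and 2687) than in the other 4 SIK3 libraries.

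Without TNF, 49 of the 50 genes were lower in SIK3 than in Scr1 libraries at an adjusted p under 0.05 (edgeR quasi-likelihood test, Benjamini-Hochberg over 16695 genes), where 19.8% of all genes tested were lower. The median log2 fold was -2.33, a median of 5.04-fold lower, against 0.01 over all genes tested. At 30 min of TNF 49 were lower (19.6% of all genes), with a median log2 fold of -2.21. At 4 h 46 were lower (19.9% of all genes), with a median of -1.61, or 3.04-fold lower. No member was called higher at any of the 3 times.

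Level by level, 48 of the 50 genes had all 6 SIK3 libraries below all 6 Scr1 libraries, a pattern held by 17.6% of all genes tested, and the exceptions were BUB3 and PRC1. Blocked by replicate number, since same-numbered libraries deviated together, 50, 49 and 48 were lower at the 3 times (29.1, 30.0 and 29.1% of all genes). With any single library left out, the median log2 fold of the 50 genes was -2.34 to -2.29 without TNF. It was -2.25 to -2.17 at 30 min and -1.62 to -1.59 at 4 h. The size of the difference spanned a wide range across the genes, from -3.87 for HMMR to -0.18 for BUB3 on the log2 scale without TNF. Across the 50 genes the folds without TNF and at 30 min, which rest on separate libraries, had a Pearson's r of 0.985 and a Spearman's rho of 0.977, and those without TNF and at 4 h 0.942 and 0.922. These correlations are across genes, which are not independent replicates, and all the genes share the same libraries. Every one of the 50 genes had a larger deficit without TNF than at 4 h.

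**Figure D2:**
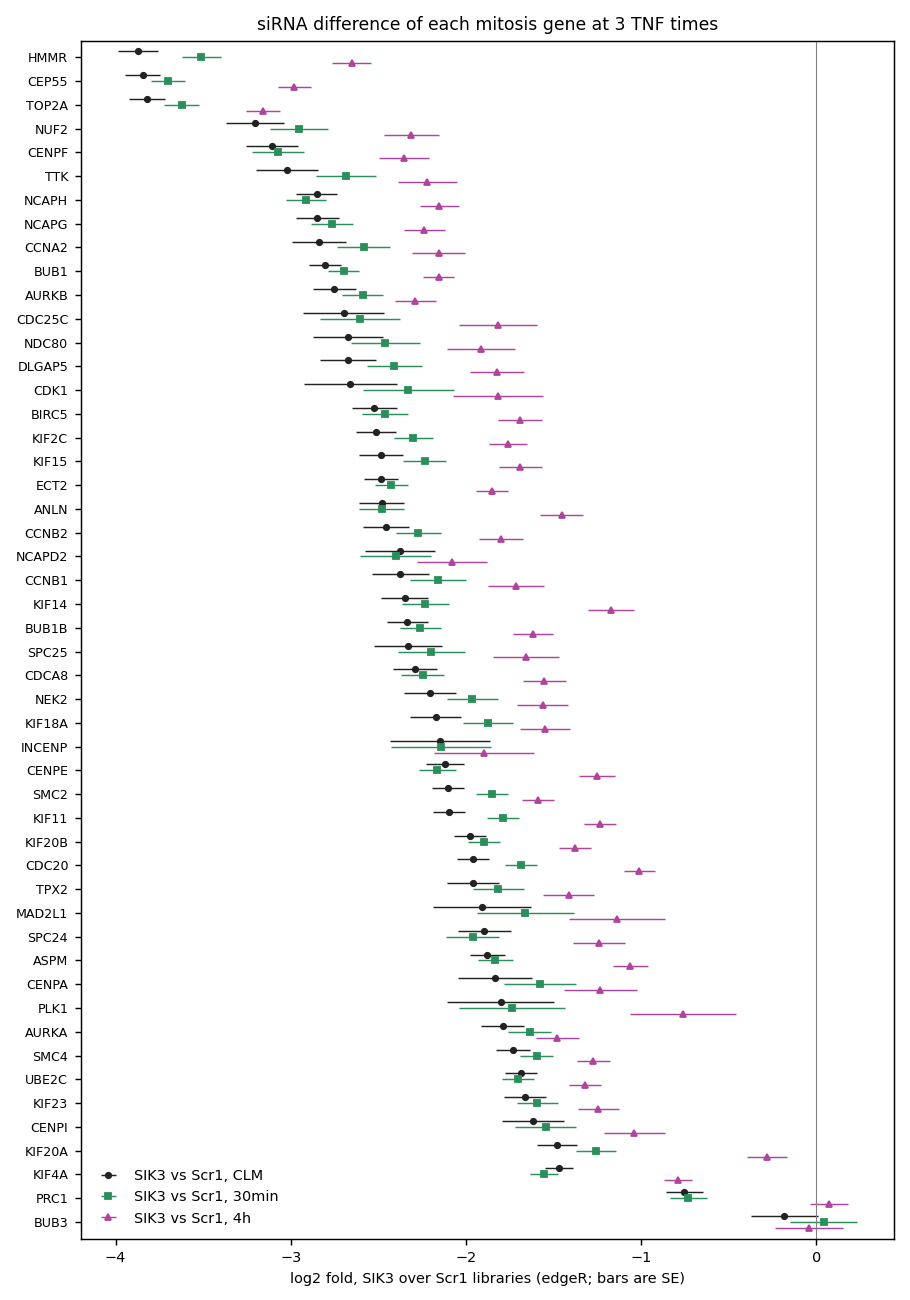
Log2 fold of SIK3 over Scr1 libraries for each of the 50 genes without TNF (circles), at 30 min (squares) and at 4 h of TNF (triangles), from edgeR, with bars of 1 SE. HMMR, CEP55 and TOP2A sit at the far left without TNF, at -3.82 or below, BUB3 lies nearest to 0, and the 4 h values lie to the right of those without TNF for all 50 genes.

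Because the members moved together, their promoters were searched for 2 short motifs that cell cycle promoters are known to carry: the CHR-type element TTTGAA or TTCGAA, and CCAAT, a box bound by NF-Y. Both strands were searched in 300 bases around the start (250 before, 50 after) in RefSeq promoters of GRCh38.p14. Each motif was searched separately, so matches of the 2 may share a base. Of the 50 genes 44 matched a promoter, and TPX2, BUB3, AURKA, UBE2C, TTK and BIRC5 did not. A CHR-type match was present in 34 of the 44 (77.3%), against 15.5% of 11342 tested genes with a promoter. CCAAT was present in 33 (75.0%, against 42.9%) and both in 26 (59.1%, against 6.53%). In 76 other mitosis genes the shares were 44.7% for the CHR-type match, 63.2% for CCAAT and 28.9% for both. Within the 100 bases before the start the shares were 43.2% against 4.34% for the CHR-type match, 63.6% against 26.6% for CCAAT and 29.5% against 1.17% for both. A match is a run of letters and not evidence of binding. The median log2 siRNA fold without TNF was -2.34 in the members with and -2.29 in those without a CHR-type match, -2.33 and -2.48 with and without CCAAT, and -2.31 and -2.43 with and without both, differences that were not tested.

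The promoters of 6 genes are shown to let a reader see the 2 motifs in genes at different points of the siRNA range. TOP2A and CEP55 were among the most reduced, CDC20 and KIF11 differed in their TNF response between siRNAs, KIF4A was among the least reduced, and KIF2C has no match in the stretch shown. Each runs from 200 bases before the RefSeq start to the last base before the earlier of the RefSeq and GENCODE starts, 5′ to 3′ on the strand of the gene. Capitals mark the CHR-type element or CCAAT on either strand (read from the opposite one as TTCAAA and as ATTGG). In GRCh38.p14 the TOP2A stretch is chr17:40417951-40418096 (minus strand), CEP55 chr10:93496412-93496611 (plus), CDC20 chr1:43358781-43358954 (plus), KIF11 chr10:92592930-92593129 (plus), KIF4A chrX:70289904-70290089 (plus) and KIF2C chr1:44739637-44739817 (plus).
TOP2A: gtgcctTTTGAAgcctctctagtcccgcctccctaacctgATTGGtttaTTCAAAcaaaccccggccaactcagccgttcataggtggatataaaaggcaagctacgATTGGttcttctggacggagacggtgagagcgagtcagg
CEP55: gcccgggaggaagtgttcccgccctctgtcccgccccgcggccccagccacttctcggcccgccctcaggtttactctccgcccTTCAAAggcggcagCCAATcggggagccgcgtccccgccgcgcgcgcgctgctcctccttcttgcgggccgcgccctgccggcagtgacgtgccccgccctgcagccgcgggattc
CDC20: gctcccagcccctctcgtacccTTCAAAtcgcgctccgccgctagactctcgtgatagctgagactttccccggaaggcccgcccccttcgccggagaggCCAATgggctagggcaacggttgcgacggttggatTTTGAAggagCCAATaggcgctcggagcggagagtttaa
KIF11: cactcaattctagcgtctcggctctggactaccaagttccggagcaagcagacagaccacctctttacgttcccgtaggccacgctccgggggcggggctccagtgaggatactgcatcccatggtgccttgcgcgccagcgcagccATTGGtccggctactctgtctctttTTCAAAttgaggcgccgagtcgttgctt
KIF4A: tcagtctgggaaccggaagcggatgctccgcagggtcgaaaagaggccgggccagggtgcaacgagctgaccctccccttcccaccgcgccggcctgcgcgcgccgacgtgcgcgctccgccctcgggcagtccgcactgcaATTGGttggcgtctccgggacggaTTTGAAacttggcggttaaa
KIF2C: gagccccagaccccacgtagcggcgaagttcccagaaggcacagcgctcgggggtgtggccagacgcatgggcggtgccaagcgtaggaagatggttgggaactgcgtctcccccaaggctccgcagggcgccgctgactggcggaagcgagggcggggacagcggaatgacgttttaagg
In TOP2A the matches lie at -194 and -151 (CHR-type) and at -160 and -93 (CCAAT), counted from the RefSeq start. CDC20 likewise holds 2 of each, at -178 and -65 and at -100 and -55. In CEP55 the pair lies at -116 and -102, in KIF11 at -28 and -53 and in KIF4A at -34 and -58. KIF2C, with no match in the 181 bases shown, was 5.72-fold lower without TNF, and KIF4A, with both, 2.77-fold lower. The stretches shown are shorter than the 300 bases searched, and a relation of motif to fold was not tested.

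All 8 mitotic kinases and cyclins were lower without TNF and at 30 min, and 7 at 4 h, with median log2 folds of -2.41, -2.21 and -1.76. CCNB1, the cyclin that partners CDK1 at mitotic entry, had the highest level per kilobase of the set, with 157 CPM per kilobase of exon in Scr1 CLM and 30.2 in SIK3 CLM. It was at 445 and 357 CPM in Scr1 CLM, 461 and 386 in Scr1 30min and 389 and 337 in Scr1 4h. In the SIK3 libraries it was at 84.4 and 70.3 CPM in CLM, 101 and 89.1 at 30min and 119 and 102 at 4h. The groups did not overlap, and the log2 fold without TNF was -2.37 ± 0.16 (SE, n = 2 per group, edgeR adjusted p = 4.93e-06).

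CCNA2, the A-type cyclin of S phase and mitotic entry, had the largest fold of the set. It was at 90.9 and 81.9 CPM in Scr1 CLM and at 13.1 and 11.0 in SIK3 CLM, and at 4h at 73.1 and 67.1 against 17.5 and 14.1. Every SIK3 library lay below every Scr1 library, and the log2 fold without TNF was -2.84 ± 0.15 (SE, edgeR adjusted p = 1.39e-06). CDK1 itself was 6.32-fold lower, the phosphatase gene CDC25C that activates it 6.49-fold and CCNB2 5.48-fold. The centrosome kinases NEK2 and AURKA were 4.62-fold and 3.46-fold lower. PLK1, a kinase of mitotic entry and spindle poles, had the lowest level per kilobase of the 50 genes in Scr1 CLM, at 4.97 CPM per kilobase. It was the 1 gene of the set not called at 4 h, with a log2 fold of -0.76 ± 0.30 (SE, edgeR adjusted p = 0.0729), and it was called when the replicate number was a block.

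Of the 7 spindle checkpoint and APC/C genes, 6 were lower at all 3 times and BUB3 was not called at any. TTK, the kinase that starts checkpoint signalling, had the largest fold of the set. It was at 107 and 85.0 CPM in Scr1 CLM and 93.7 and 79.5 in Scr1 4h, and at 12.96 and 10.6 in SIK3 CLM and 19.7 and 17.5 in SIK3 4h. The groups did not overlap, with a log2 fold of -3.02 ± 0.17 without TNF (SE, edgeR adjusted p = 1.96e-06). BUB1 was 6.99-fold lower and BUB1B, the other checkpoint kinase-family protein, 5.05-fold. CDC20, the APC/C activator, was 3.89-fold lower and MAD2L1, its checkpoint inhibitor, 3.75-fold.

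UBE2C, the ubiquitin-conjugating enzyme of the APC/C, had the highest level per kilobase of the checkpoint set, with 60.6 CPM per kilobase in Scr1 CLM and 18.9 in SIK3 CLM. It was at 78.9 and 76.9 CPM in Scr1 CLM, 68.6 and 71.5 in Scr1 30min and 82.6 in both Scr1 4h libraries, against 24.0 and 24.6, 20.4 and 22.7, and 32.0 and 34.1 in the SIK3 groups. No library overlapped, and the log2 fold without TNF was -1.68 ± 0.09 (SE, edgeR adjusted p = 1.41e-06).

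BUB3, a checkpoint protein that binds BUB1 and BUB1B, stood apart from its partners. It was at 191 and 150.4 CPM in Scr1 CLM, 165 and 143 in Scr1 30min and 192 and 134 in Scr1 4h. The SIK3 libraries held it at 167 and 134 CPM in CLM, 175 and 142 at 30min and 164 and 153 at 4h. The ranges overlapped almost completely, and the log2 folds were -0.18 ± 0.19 without TNF, 0.04 ± 0.19 at 30 min and -0.04 ± 0.19 at 4 h (SE, edgeR adjusted p = 0.500, 0.893 and 0.892). Blocked by replicate, the fold without TNF was -0.18 ± 0.07 (SE, edgeR adjusted p = 0.0309), which made it lower, while those at 30 min and 4 h remained uncalled.

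All 8 kinetochore genes were lower at all 3 times, with median log2 folds of -2.23, -2.18 and -1.45. CENPF, a large protein of the outer kinetochore, had the highest level per kilobase of the set (86.8 CPM per kilobase in Scr1 CLM, 10.1 in SIK3 CLM). It was at 921 and 1108 CPM in Scr1 CLM, 1115 and 1168 in Scr1 30min and 912 and 1089 in Scr1 4h. Its SIK3 levels were 118 and 117 CPM in CLM, 119 and 152 at 30min and 189 and 203 at 4h. The lowest Scr1 library was 4.50-fold above the highest SIK3 library, and the log2 fold without TNF was -3.11 ± 0.15 (SE, edgeR adjusted p = 8.05e-07).

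The 4 subunits of the NDC80 complex, the microtubule grip of the kinetochore, were not equally reduced. NUF2 was at 81.3 and 71.2 CPM in Scr1 CLM and 9.32 and 7.07 in SIK3 CLM, and its log2 fold of -3.21 ± 0.17 (SE, edgeR adjusted p = 1.18e-06) was the largest of the kinetochore set. NDC80 itself was 6.37-fold lower, SPC25 5.03-fold and SPC24 3.72-fold. The kinetochore motor CENPE was 4.35-fold lower, the centromeric histone CENPA 3.57-fold and CENPI, of the inner kinetochore, 3.07-fold. Differences between these folds were not tested.

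Condensin and topoisomerase genes were all lower at all 3 times, with median log2 folds of -2.61, -2.58 and -2.12. TOP2A, which untangles sister chromatids, had both the highest level per kilobase (117 CPM per kilobase in Scr1 CLM, 8.29 in SIK3 CLM) and the largest fold of the set. It was at 754 and 753 CPM in Scr1 CLM, 813 and 774 in Scr1 30min and 719 and 734 in Scr1 4h. With SIK3 siRNA it was at 55.5 and 51.3 CPM in CLM, 62.3 and 66.5 at 30min and 75.5 and 87.3 at 4h. The lowest Scr1 library was 8.23-fold above the highest SIK3 library, the widest such gap among the 50 genes, and the log2 fold without TNF was -3.82 ± 0.10 (SE, edgeR adjusted p = 9.78e-08).

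The non-SMC condensin subunits NCAPH and NCAPG were 7.22-fold and 7.20-fold lower without TNF and NCAPD2 5.19-fold. The SMC ATPases that form the condensin ring were less reduced, SMC2 4.30-fold and SMC4 3.32-fold, with no test of that difference. In GENCODE 29 NCAPG shares 33.1% and SMC4 25.6% of exon bases with other genes, some of them on the other strand. The strand setting of the counting is not given in the sources used here. Reads ambiguous between genes, 1.76 to 4.78% of all reads per library, are held apart from the gene counts. Reads in shared exon bases may thus be missing from the levels of these genes.

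The 4 genes of the chromosomal passenger complex were lower at all 3 times, with median log2 folds of -2.41, -2.35 and -1.80. AURKB, its kinase, was at 31.2 CPM in both Scr1 CLM libraries, 31.4 and 31.1 in Scr1 30min and 36.3 and 39.1 in Scr1 4h. In the SIK3 libraries it was at 4.77 and 4.49 CPM in CLM, 4.79 and 5.59 at 30min and 7.63 and 7.77 at 4h. Its libraries did not overlap, and its log2 fold of -2.75 ± 0.12 (SE, edgeR adjusted p = 7.13e-07) was the largest of the 4. BIRC5 (survivin) had the highest level per kilobase, 37.1 in Scr1 CLM and 6.45 in SIK3 CLM, and its log2 fold was -2.52 ± 0.13 (SE, edgeR adjusted p = 1.18e-06). CDCA8 (borealin) was 4.90-fold lower and the scaffold INCENP 4.43-fold.

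The 4 spindle assembly genes were lower at all 3 times, with median log2 folds of -2.31, -2.12 and -1.62. HMMR, a microtubule-binding protein that is also a hyaluronan receptor, had the largest fold of all 50 genes without TNF. It was at 185 and 165 CPM in Scr1 CLM, 178 and 162 in Scr1 30min and 137 and 125 in Scr1 4h. The SIK3 libraries held it at 11.91 and 11.97 CPM in CLM, 15.6 and 14.3 at 30min and 21.8 and 19.8 at 4h. The groups were far apart without TNF, 14.6-fold, and closer at 4 h, 6.29-fold, with a log2 fold without TNF of -3.87 ± 0.12 (SE, edgeR adjusted p = 1.47e-07).

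TPX2, the activator of AURKA on the spindle, had the highest level per kilobase of all 50 genes, with 169 CPM per kilobase in Scr1 CLM and 43.6 in SIK3 CLM. It was at 561 and 659 CPM in Scr1 CLM and 145 and 169 in SIK3 CLM, without overlap, with a log2 fold of -1.96 ± 0.15 (SE, edgeR adjusted p = 8.86e-06). DLGAP5, a spindle microtubule stabiliser, was 6.37-fold lower and ASPM, a spindle pole protein, 3.68-fold.

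The 9 kinesins were lower without TNF and at 30 min, and 8 at 4 h, with median log2 folds of -2.10, -1.87 and -1.25. KIF2C, which depolymerises microtubules at the centromere, was at 131 and 122 CPM in Scr1 CLM and 21.7 and 22.6 in SIK3 CLM. Its log2 fold of -2.52 ± 0.11 (SE, edgeR adjusted p = 7.17e-07) was the largest of the kinesins, and its groups did not overlap at any time. KIF23, a subunit of centralspindlin, had the highest level per kilobase (52.4 in Scr1 CLM, 16.5 in SIK3 CLM) and a log2 fold of -1.66 ± 0.12 (SE, edgeR adjusted p = 6.40e-06). KIF4A, a chromosome-bound motor, was at 95.8 and 94.4 CPM in Scr1 CLM and 34.5 and 34.3 in SIK3 CLM, with the third smallest fold of the 50 genes (-1.47 ± 0.08, SE, edgeR adjusted p = 1.45e-06). Its near-identical copy KIF4B held 43 counts over all libraries, or 0.299% of the counts of KIF4A.

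Of the other kinesins, KIF15, KIF14 and KIF18A were 5.60-fold, 5.10-fold and 4.51-fold lower without TNF. KIF11, the motor that separates the spindle poles, was 4.28-fold lower, KIF20B 3.94-fold and KIF20A, a motor of the central spindle, 2.79-fold. At 4 h KIF20A was the 1 kinesin not called, with a log2 fold of -0.28 ± 0.11 (SE, edgeR adjusted p = 0.0794). Blocked by replicate, it was called at 4 h too.

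All 4 cytokinesis genes were lower without TNF and at 30 min, and 3 at 4 h, with median log2 folds of -2.48, -2.45 and -1.65. CEP55, needed for the final separation of daughter cells, had both the highest level per kilobase of the set in Scr1 CLM (98.4) and its largest fold. It was at 331 and 312 CPM in Scr1 CLM, 335 and 298 in Scr1 30min and 345 and 324 in Scr1 4h. Its SIK3 levels were 21.9 and 22.9 CPM in CLM, 24.2 and 24.4 at 30min and 41.2 and 43.6 at 4h. The lowest Scr1 library was 6.84-fold above the highest SIK3 library, and the log2 fold without TNF was -3.85 ± 0.10 (SE, edgeR adjusted p = 9.78e-08). ANLN, which links the contractile ring to the membrane, and ECT2, the activator of RHOA at the cleavage site, were 5.58-fold and 5.59-fold lower. Over all libraries ANLN had the highest mean level per kilobase of the 4, at 62.6.

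PRC1, which bundles the microtubules of the central spindle, was the 1 gene apart from BUB3 whose SIK3 and Scr1 libraries overlapped. It was at 96.4 and 85.6 CPM in Scr1 CLM, 109 and 95.3 in Scr1 30min and 76.1 and 71.3 in Scr1 4h. With SIK3 siRNA it was at 53.5 and 54.5 CPM in CLM, 64.5 and 58.7 at 30min and 80.5 and 74.4 at 4h. The pairs were separate without TNF and at 30 min (log2 folds of -0.75 ± 0.11 and -0.73 ± 0.11, SE, edgeR adjusted p = 0.000414 and 0.000496) and overlapped at 4 h (0.07 ± 0.11, SE, edgeR adjusted p = 0.633). PRC1 shares 58.4% of its exon bases with other genes, at least 1 of them on the other strand. Reads ambiguous between genes are held apart from the gene counts, so reads in the shared bases may be missing from its level.

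**Figure D3:**
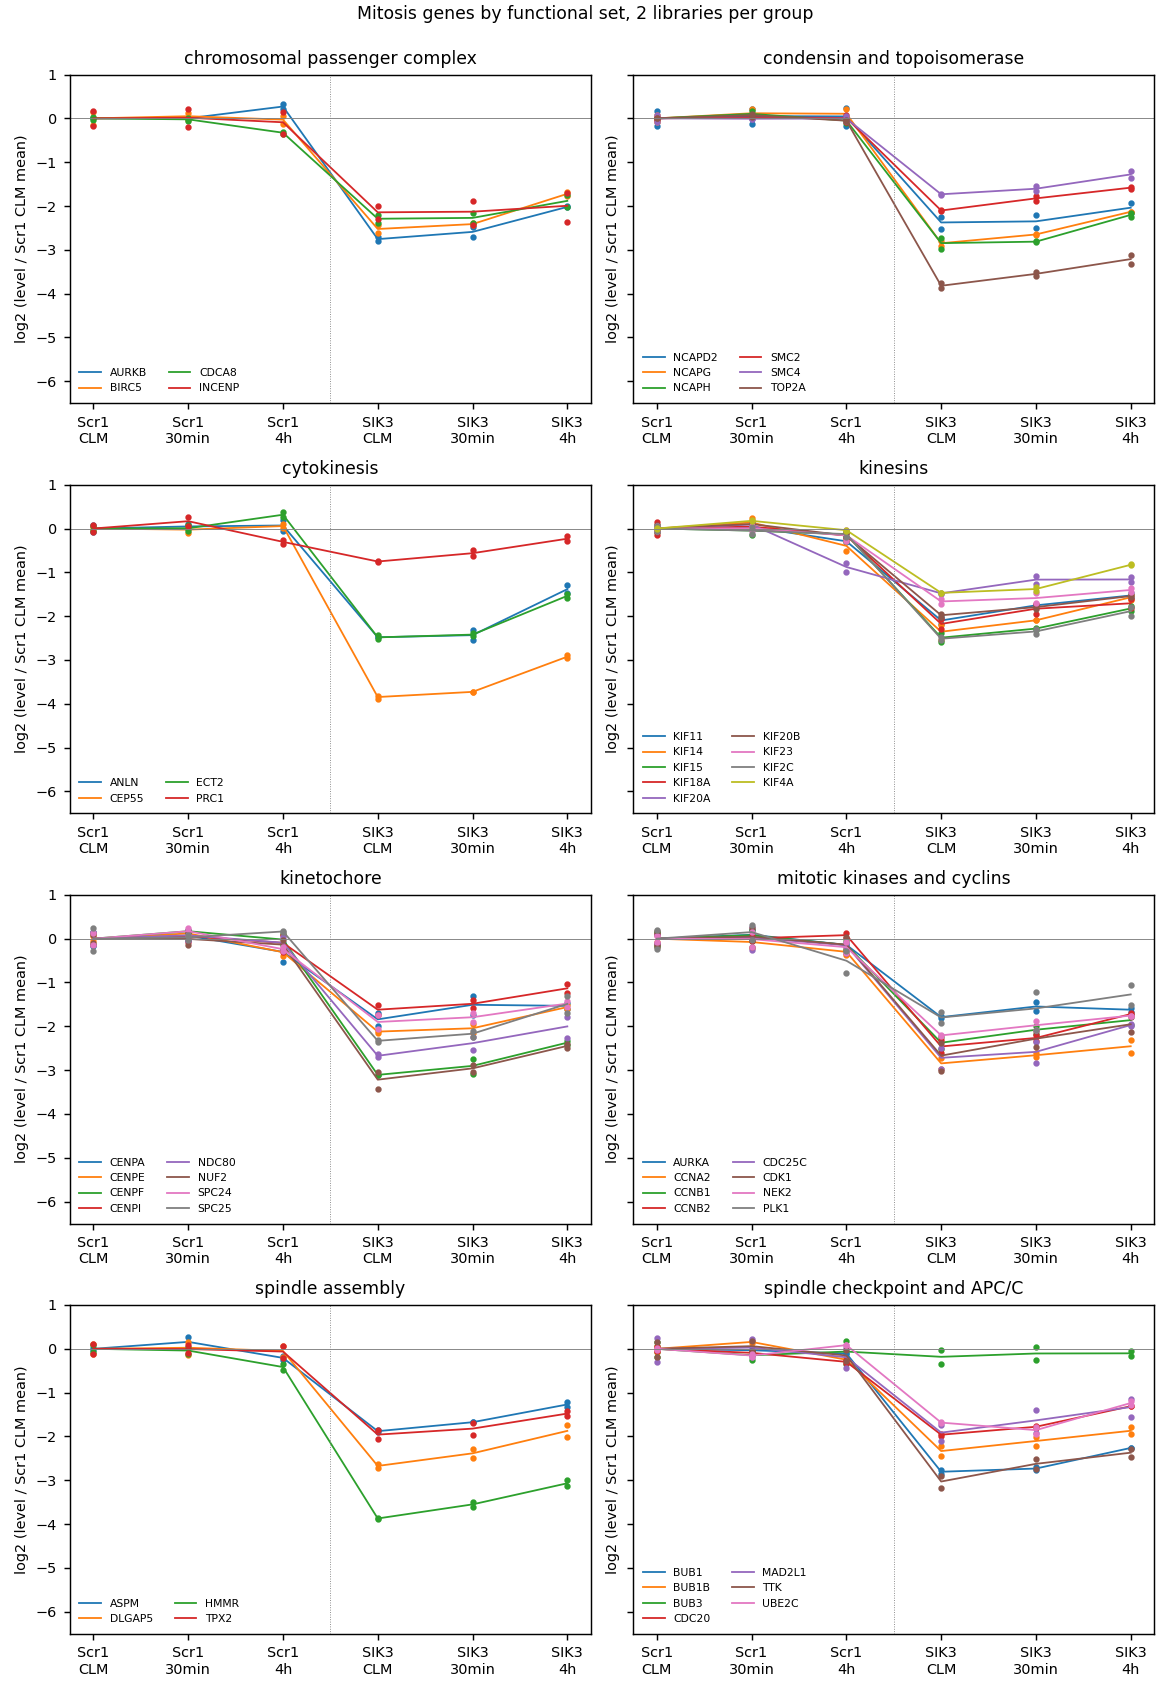
Level of each gene relative to its Scr1 CLM mean (log2 axis) in the 6 file-name groups, in 1 panel per functional set, with points for the 2 libraries of a group and lines through the group means. All 6 SIK3 libraries lie below all 6 Scr1 libraries for every gene except BUB3 and PRC1, and KIF20A at Scr1 4h, at 20.4 and 23.6 CPM, comes close to its SIK3 levels.

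Read counts of near-identical copies were small beside those of the members. Multimapping reads are held apart from the gene counts, so reads that fit a member and its copy equally may be in neither count. Named copies or pseudogenes exist for 15 of the 50 genes, and the largest, UBE2CP5, held 3.01% of the counts of UBE2C. In all, 19 members share exon bases with another gene, 5 of them over 10%.

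Other genes of mitosis, 90 in 6 lists that were also chosen with earlier results known, were compared with the members. Without TNF 65 of the 90 were lower and 7 higher, with a median log2 fold of -1.15, where 19.8% of all genes were lower and 18.9% higher. The other kinesins and spindle genes came closest to the members, with 13 of 14 lower (median -1.96), followed by 27 of 32 other kinetochore genes (median -1.58) and 9 of 13 genes of mitotic entry and exit (median -1.17). In the last list CDC14A was called higher (0.54 ± 0.14, SE, edgeR adjusted p = 0.0131). Of 12 other condensin and cohesin genes 8 were lower and 2 higher (median -0.88), and of 7 other cytokinesis genes 5 were lower and 2 higher (median -0.64). The 12 core subunits of the APC/C, whose activator CDC20 and enzyme UBE2C are members, had a median of 0.01, with 3 lower and 2 higher. SGO1, the protector of centromeric cohesion, had the largest deficit of the 90 (-2.96 ± 0.19, SE, edgeR adjusted p = 3.76e-06), and the APC/C subunit CDC26 the largest increase (0.75 ± 0.12, SE, edgeR adjusted p = 0.000981). These 2 were chosen after their values were seen.

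After 30 min of TNF no mitosis gene changed in Scr1 libraries by edgeR, where 0.294% of all genes were called in either direction. None of the 50 had an unadjusted p under 0.05, DESeq2 called none, and the log2 differences from CLM ran from -0.15 to 0.18 with a median of 0.04. In SIK3 libraries none was called either (0.15% of all genes called in either direction), 7 had an unadjusted p under 0.05 and DESeq2 called none. There 49 of the 50 differences lay above 0, with a median of 0.19 and a range from -0.17 to 0.40. Blocked by replicate, 9 genes were called higher in SIK3 libraries (1.67% of all genes higher): TOP2A, SMC2, DLGAP5, CCNB1, HMMR, KIF11, KIF18A, CDK1 and TTK, at log2 differences of 0.27 to 0.40. The difference between the 30 min responses was called for none of the 50 genes and for no gene at all by edgeR (0.0% of 16695, 2 of the 50 with an unadjusted p under 0.05), while DESeq2's Wald test called 6 of all genes and none of the 50.

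After 4 h of TNF in Scr1 libraries, KIF20A and HMMR fell against CLM, 2 of 50 where 3.46% of all genes were lower. KIF20A went from 41.5 and 39.4 CPM in CLM and 43.4 and 42.8 at 30min to 20.4 and 23.6 at 4h. Both 4h libraries lay below the 4 others, and the log2 difference from CLM was -0.88 ± 0.11 (SE, edgeR adjusted p = 0.000895). HMMR, at 137 and 125 CPM at 4h, was lower by -0.42 ± 0.10 (SE, edgeR adjusted p = 0.0315). The median of the 50 was -0.14, against -0.03 over all genes tested, with 40 below 0. HMMR lost its call without replicate 1 of Scr1 CLM or without either replicate of Scr1 4h, which left KIF20A alone. Blocked by replicate, 15 genes were lower (12.2% of all genes) and 2 higher (11.3% of all genes), the 2 being ECT2 and AURKB.

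Against 30 min, 8 genes were lower at 4 h in Scr1 libraries, where 4.92% of all genes were lower. They were KIF20A (-0.97 ± 0.11, SE, edgeR adjusted p = 0.000431), PRC1 (-0.47 ± 0.11, 0.0185), CENPE (-0.43 ± 0.10, 0.0244), KIF14 (-0.53 ± 0.13, 0.0250), ASPM (-0.37 ± 0.10, 0.0396), KIF11 (-0.33 ± 0.09, 0.0425), HMMR (-0.38 ± 0.10, 0.0426) and BUB1B (-0.41 ± 0.11, 0.0431). They comprise 3 kinesins, 2 spindle assembly genes and 1 gene each of the kinetochore, the checkpoint and cytokinesis. ASPM and KIF11 lost these calls with DESeq2 size factors and without a filter, and ASPM also with DESeq2's Wald test. Without any 1 of the Scr1 30min and 4h libraries, fewer of the 50 genes and fewer of all genes were called lower. The median log2 difference of the 50 was then -0.24 to -0.10. With the replicate block the count rose to 24 lower (15.3% of all genes) and 3 higher (12.8%). Of the 50 genes 17 had both Scr1 4h libraries below the 4 other Scr1 libraries (17.2% of all genes) and 3 above (13.7%).

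In SIK3 libraries the mitosis genes were higher after 4 h of TNF. Of the 50, 28 rose against CLM and none fell, where 3.65% of all genes rose, and all 50 differences lay above 0 with a median log2 difference of 0.57 (0.00 over all genes tested). All 4 cytokinesis genes rose, as did 5 of 6 condensin and topoisomerase genes, 6 of 9 kinesins, 3 of 4 spindle assembly genes and 4 of 8 kinetochore genes. Of the passenger complex 2 of 4 rose, of the checkpoint set 3 of 7 and of the kinases and cyclins 1 of 8, CCNB2. The 2 SIK3 4h libraries lay above the 4 other SIK3 libraries for 39 of the 50 genes, where 17.5% of all genes did.

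ANLN had the largest rise. It was at 105 and 106 CPM in SIK3 CLM and 100.3 and 118 at 30min, against 212 and 239 at 4h. Both 4h libraries were above the other 4, and the log2 difference from CLM was 1.10 ± 0.12 (SE, edgeR adjusted p = 0.00121), 2.14-fold. ECT2 went from 77.9 and 73.2 CPM in CLM and 80.4 and 77.4 at 30min to 149 and 142 at 4h. Its 4h libraries also lay above the other 4, with a log2 difference of 0.95 ± 0.09 (SE, edgeR adjusted p = 0.000601). CEP55 rose from 21.9 and 22.9 CPM to 41.2 and 43.6, again without overlap, by 0.92 ± 0.09 (SE, edgeR adjusted p = 0.000604). KIF4A rose by 0.64 ± 0.08, HMMR by 0.80 ± 0.11 and CDC20 by 0.65 ± 0.09 (SE, edgeR adjusted p = 0.00218, 0.00343 and 0.00380).

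The summed level of the 50 genes in the SIK3 4h libraries, 2700.0 and 2687 CPM, was still below the lowest Scr1 sum of 8448. Of single genes, BUB3 and PRC1 were within the Scr1 range. The 2 SIK3 4h libraries are also those with 16.5 and 17.1% of all reads, multimapping ones included, outside annotated genes. That difference and the condition cannot be told apart. Without any 1 of the SIK3 CLM and 4h libraries, fewer of the 50 genes and fewer of all genes were called higher. The median log2 difference of the 50 was then 0.51 to 0.61. Fitted with the replicate block, the count of genes that rose was 46 (12.5% of all genes higher), and the 4 others were BUB3, INCENP, AURKA and CENPA.

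Against 30 min, 18 genes were higher at 4 h in SIK3 libraries, where 4.94% of all genes were higher, with a median log2 difference of 0.37. ECT2 (0.88 ± 0.09), CEP55 (0.80 ± 0.09), ANLN (1.05 ± 0.12), KIF4A (0.55 ± 0.08), UBE2C (0.62 ± 0.09) and BIRC5 (0.69 ± 0.13) had the smallest p-values (SE, edgeR adjusted p = 0.000548, 0.000848, 0.00101, 0.00327, 0.00362 and 0.0107). UBE2C went from 20.4 and 22.7 CPM at 30min to 32.0 and 34.1 at 4h, and BIRC5 from 27.0 and 26.1 to 41.8 and 44.1, both without overlap. Without any 1 of the SIK3 30min and 4h libraries, fewer of the 50 genes and fewer of all genes were called higher. The median log2 difference of the 50 was then 0.37 to 0.45. With the replicate block the count was 40 (14.8% of all genes higher).

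The 4 h response differed between the siRNAs for 15 of the 50 genes, each with a higher response in SIK3 than in Scr1 libraries, where 0.719% of all genes had such a call. All 50 differences of the responses lay above 0, with a median of 0.69 on the log2 scale (0.03 over all genes tested). HMMR showed the largest, 1.22 ± 0.15 (SE, edgeR adjusted p = 0.00572): it was lower by -0.42 at 4h in Scr1 libraries and higher by 0.80 in SIK3 libraries. KIF20A, with a difference of 1.20 ± 0.16 (SE, edgeR adjusted p = 0.00864), was lower by -0.88 in Scr1 libraries and stood at 14.3 and 14.7 CPM in SIK3 CLM and 17.3 and 18.9 in SIK3 4h. KIF14 differed by 1.18 ± 0.18, CDC20 by 0.95 ± 0.12, CEP55 by 0.87 ± 0.13 and KIF11 by 0.86 ± 0.13 (SE, edgeR adjusted p = 0.0168, 0.00749, 0.0120 and 0.0123).

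By set, the 15 genes comprised 4 of 4 cytokinesis genes, 5 of 9 kinesins, 2 of 4 spindle assembly genes, 2 of 7 checkpoint and APC/C genes, 1 of 8 kinetochore genes and 1 of 6 condensin and topoisomerase genes. None of the 8 mitotic kinases and cyclins and none of the 4 passenger complex genes was among them, with medians of 0.67 and 0.60. Leaving out any 1 library of the 8 lowered the count for the 50 genes and for all genes. The median difference of the responses of the 50 was then 0.63 to 0.76. Fitted with the replicate block, the count was 47 (6.44% of all genes higher), and BUB3, INCENP and AURKB were the others. Across the 50 genes the 4 h differences in Scr1 and in SIK3 libraries had a Pearson's r of 0.358 and a Spearman's rho of 0.366, from separate libraries.

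**Figure D4:**
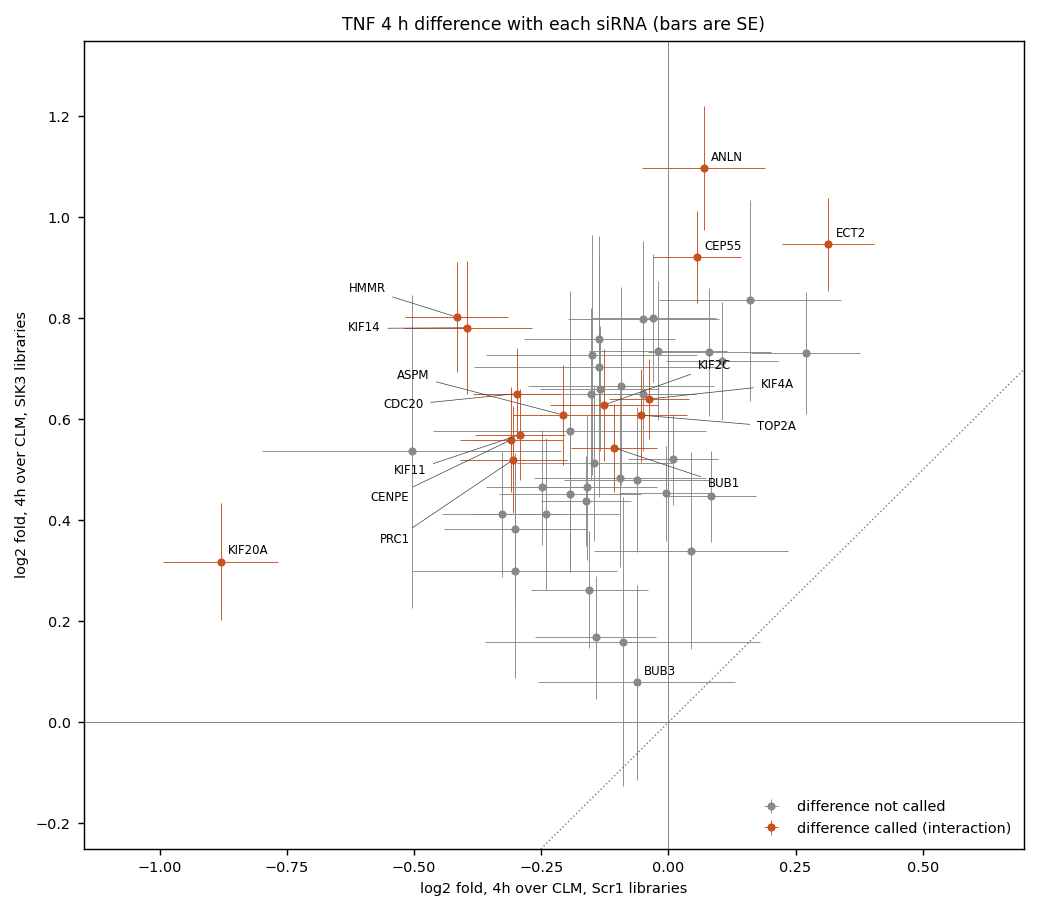
Log2 difference of 4h from CLM in Scr1 libraries (horizontal) and in SIK3 libraries (vertical) for the 50 genes, with bars of 1 SE, a dotted line of equal response and colour for the 15 genes whose responses differed by edgeR. All 50 points lie above the line and above 0 on the vertical axis, and KIF20A lies farthest to the left at -0.88.

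Among the 90 other mitosis genes, 15 rose and none fell after 4 h of TNF in SIK3 libraries, with a median of 0.12, where 3.65% of all genes rose. They include ESPL1, the protease that splits cohesin (1.30 ± 0.18, SE, edgeR adjusted p = 0.00368), SGO1 (0.95 ± 0.19, 0.0246) and SKA1, of the outer kinetochore (0.89 ± 0.14, 0.00765), which were chosen after their values were seen. The 4 h response differed between the siRNAs for 5 of the 90, each with a higher response in SIK3 libraries, where 0.719% of all genes had such a call.

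Named by the sample titles, the same pairs of libraries give other comparisons. SIK3 against control siRNA without TNF then called none of the 50 genes (0.294% of all genes called in either direction), at 30 min 49 lower (21.8% of all genes lower) and at 4 h 18 higher (4.94% higher). After 30 min of TNF with control siRNA 2 were lower, where 3.46% of all genes were lower, and after 4 h 49 were lower against no TNF (19.7%) and 47 against 30 min (21.7%). With SIK3 siRNA 49 were lower at both times (20.4 and 20.5% of all genes), and 28 were higher at 4 h than at 30 min (3.65%). The TNF response differed between the siRNAs for 49 genes at 30 min, each lower with SIK3 siRNA (15.5%), and for 5 at 4 h, each higher (2.28%). No gene of the 50 separated the 6 libraries titled SIK3 siRNA from the 6 titled control (0.00599% of all genes were lower without overlap). Whichever names are used, 6 libraries hold the mitosis genes at a high and 6 at a low level, and the low ones are those with the lower SIK3 mRNA.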

How the data were processed

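Total RNA was made into 12 libraries with the ScriptSeq Complete Kit, per the labels' protocols. The deposited tables hold raw counts of reads per Ensembl gene, made with STAR 2.05b on GRCh38, with edgeR also named, per the submitters' processing notes. The strand setting and annotation release are not given in the sources used here. Column 2 of each table was used, without its 4 summary entries, and 3742 identifiers matched no symbol.

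Groups followed the file-name words, with the sample titles as an alternative. Genes were kept by filterByExpr (minimum count 10), scaled by TMM and fitted over all 12 libraries and 6 groups (edgeR 4.0.16 quasi-likelihood test, R 4.3.3, 6 residual degrees of freedom), with Benjamini-Hochberg adjustment over 16695 genes and a threshold of 0.05. The fitting code was tested on simulated counts. Same-numbered libraries deviated together (correlation 0.350 to 0.530, median 0.421, over 15 pairs of groups), so the fit with the replicate number as a term is given where it changes a call. Alternatives were DESeq2 1.42.0 (size factors and Wald test), library totals, no filter, a stricter filter (CPM of 1 in 4 libraries), titles (with the replicate block added after seeing the data) and leaving out each library. Levels per kilobase used GENCODE 29 exon lengths and promoters were RefSeq's (GRCh38.p14).

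Genes named with full statistics were SIK3; in each set the member with the highest mean level per kilobase and the one with the largest fold without TNF; the 3 members with the smallest fold; and up to 6 called members per TNF comparison and response difference by smallest p. Members named beyond these, with values only, were chosen after their values were seen. The members and lists were chosen with earlier results of these data known.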

Additional observations from a re-analysis of the deposited data

Results flagged for a closer look

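The response to 4 h of TNF differed between the siRNAs, by a test of the difference itself (edgeR interaction term over 16695 genes), for 15 of the 50 mitosis genes, in each case with a higher response in SIK3 libraries, where 0.719% of all genes had such a call. Without any 1 of the libraries concerned, fewer of the 50 genes and fewer of all genes were called, and the median difference was 0.63 to 0.76. With the replicate block 47 were called. Among kinesins the log2 differences were 1.20 for KIF20A (edgeR adjusted p = 0.00864), 1.18 for KIF14 (0.0168), 0.86 for KIF11 (0.0123), 0.76 for KIF2C (0.0474) and 0.68 for KIF4A (0.0214). Cytokinesis genes differed by 1.03 for ANLN (0.0219), 0.87 for CEP55 (0.0120), 0.83 for PRC1 (0.0300) and 0.63 for ECT2 (0.0475). The spindle assembly genes HMMR and ASPM differed by 1.22 (0.00572) and 0.82 (0.0235). CDC20 and BUB1 of the checkpoint set differed by 0.95 (0.00749) and 0.65 (0.0329), CENPE of the kinetochore by 0.87 (0.0219) and TOP2A by 0.66 (0.0388). The 2 SIK3 4h libraries, on which all 15 rest, had 16.5 and 17.1% of reads outside annotated genes against 8.35 to 10.5% in the others. These shares are of all reads, and multimapping reads, unequal between libraries, lower them. This difference and the condition cannot be told apart.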

How the results depend on the processing

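Under the other scalings, filters and DESeq2's Wald test, the counts of lower mitosis genes by siRNA stayed within 1.5 times, and no called named fold changed sign under these, the replicate block or the leaving out of a library. With conditions from the titles 18 of them did. Calls could be lost without a change of sign. For 4h against 30min in Scr1, ASPM and KIF11 lost theirs with DESeq2 size factors (edgeR adjusted p = 0.0646 and 0.0626). They also lost them without a filter (edgeR adjusted p = 0.0995 and 0.190), and ASPM with DESeq2's Wald test (adjusted p = 0.0581). Leaving out a library cost further TNF and response calls. BIRC5 for 4h against 30min in SIK3 lost its call without any 1 of those libraries, at 0.65 to 0.71. Changed counts were 5 for 4h against CLM in Scr1 with library totals (825 of all 16695 genes lower). For 4h against 30min in Scr1 they were 5 with DESeq2 size factors (736 of 16695 lower) and 5 without a filter (946 of 35650 lower). With the replicate block, taking same-numbered libraries as paired, counts were 17 and 27 for 4h against CLM and 30min in Scr1, 9 for 30min against CLM, 46 for 4h against CLM and 40 for 4h against 30min in SIK3, and 47 for the 4 h response difference.

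With conditions from the titles the siRNA counts were 0 without TNF and 18 at 4 h. The titled control counts were 2, 49 and 47 for 30min against none, 4h against none and 4h against 30min. The titled SIK3 counts were 49, 49 and 28, and the response differences 49 at 30 min and 5 at 4 h. With the block added, an alternative chosen after seeing the data, they were 0 by siRNA without TNF and 40 at 4 h, 17, 49 and 49, then 49, 49 and 46, then 49 and 27. Over all 16695 genes the calls in either direction were, in the same order, 464 and 4647 by siRNA. They were then 3928, 9648 and 10213, then 9980, 10302 and 3642, then 8415 and 3374. The SIK3 level difference was -0.35 (exact permutation p = 0.431). By construction the titles put other libraries into each comparison, and 2 counts turned direction, the siRNA count at 4 h to higher and 4h against none with SIK3 siRNA to lower.

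Named folds whose sign turned with the titles are given here without and then with the block, on the log2 scale. By siRNA without TNF they were 0.0486 and 0.0505 for BIRC5, 0.0013 and 0.0001 for AURKB, 0.0747 and 0.0749 for TOP2A, 0.0475 and 0.0486 for ANLN, 0.0053 and 0.0048 for KIF23, 0.1699 and 0.1758 for CENPF, 0.0788 and 0.0811 for CCNB1, 0.0599 and 0.063 for TTK, 0.1666 and 0.1657 for PRC1, 0.1751 and 0.1748 for KIF4A and 0.2348 and 0.244 for SIK3, none of them called. For 4h against none with SIK3 siRNA they were -1.54 and -1.54 for ECT2, -2.90 and -2.90 for CEP55, -1.43 and -1.43 for ANLN, -1.003 and -1.0028 for KIF4A, -3.03 and -3.03 for HMMR and -1.22 and -1.22 for CDC20. For the 4 h response difference they were -0.0857 and -0.0807 for KIF20A.

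Leaving out 1 library gave 49 genes by siRNA without TNF and at 30 min and 45 to 46 at 4 h. TNF counts ran from 1 to 2 and 1 to 4 in Scr1 (4h against CLM and 30min), 7 to 11 and 5 to 8 in SIK3, 0 at 30 min in both, and 2 to 6 for the 4 h response difference. Shares of promoters with a CHR-type match and with both motifs were 43.2 and 29.5% in the 100-base window. Every member had at least 43 reads in every library, and each group held 2 libraries.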
